A study of Arabidopsis thaliana with 2 samples.

Results

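The plasma membrane aquaporins are described here in the stem of Arabidopsis thaliana through 10 genes, chosen by locus identifier from 33602 loci in the deposited table. They are PIP1A (AT3G61430, PIP1;1), PIP1B (AT2G45960, PIP1;2), PIP1C (AT1G01620, PIP1;3), PIP1;4 (AT4G00430), PIP1;5 (AT4G23400), PIP2A (AT3G53420, PIP2;1), PIP2B (AT2G37170, PIP2;2), PIP2;5 (AT3G54820), PIP2E (AT2G39010, PIP2;6) and PIP3 (AT4G35100, PIP2;7), with RefSeq symbols first and systematic names in brackets. The family has 13 genes in all, and RD28 (AT2G37180, PIP2;3), PIP2;4 (AT5G60660) and PIP2;8 (AT2G16850) are set beside the 10. Choice by identifier used no measured value, but it was made with earlier results of these data known.

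RNA was taken from the mature main stem of hdt1 mutant plants and of wild-type plants, both in long days at 20 °C and both 35 days after flowering. HDT1 encodes a plant-specific HD2 histone deacetylase. The labels name neither the allele nor the number of plants behind a library. With 1 library for each genotype, called wild type and hdt1 from here on, nothing below was replicated, no p-value is given, and every interval covers counting error in these libraries only. HDT1 itself was at 52.6 FPKM in wild type and 5.19 FPKM in hdt1. FPKM counts fragments or reads relative to gene length and to the depth of the library. Levels can thus be set beside each other between genes and between libraries, but small differences between libraries depend on the scaling. Depth, read back from the values and annotated exon lengths, was 21728500 reads or pairs for wild type and 23070249 for hdt1. The intervals are exact (Clopper-Pearson) at 95% from these reads.

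Aquaporins are membrane channels that let water, and in some cases other small neutral molecules, cross a membrane along its gradient. Those of the plasma membrane (PIPs) form tetramers and fall into the PIP1 and PIP2 groups. PIP2 proteins are efficient water channels when expressed alone, whereas many PIP1 proteins need a PIP2 partner to reach the plasma membrane. In plants they carry water between cells and into and out of the vascular tissue, and they are controlled by phosphorylation, by vesicle traffic and by ubiquitin-dependent turnover.

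The pore of an aquaporin is lined by a pair of Asn-Pro-Ala boxes. In the coding sequences of the RefSeq annotation of TAIR10.1 the codons of this box occurred 2 times in frame in each of the 13 genes. The stretch round the first box is shown for 2 pairs of genes, on the coding strand, with the codons of the box in capitals. PIP1C and PIP2A are the most alike of the pairs between the PIP1 and PIP2 groups, at 75.5% identity of coding sequences. PIP2B and RD28 are a close pair within PIP2. PIP1C lies on chromosome 1, PIP2A on chromosome 3, and PIP2B and RD28 on chromosome 2.
PIP1C: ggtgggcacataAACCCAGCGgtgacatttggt
PIP2A: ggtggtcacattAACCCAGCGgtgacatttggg
PIP2B: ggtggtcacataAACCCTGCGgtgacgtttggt
RD28: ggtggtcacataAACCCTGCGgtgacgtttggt
PIP2B and RD28 have the same letters over these 33 bases. Over 858 aligned coding positions they differ at 45, an identity of 94.8%, the highest of the 78 pairs compared. The stretch of 42 coding bases with most differences between them has 9, which are in capitals here. It starts at base 540 of the longest annotated coding sequence of PIP2B and at base 411 of that of RD28.
PIP2B: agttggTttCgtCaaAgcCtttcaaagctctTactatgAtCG
RD28: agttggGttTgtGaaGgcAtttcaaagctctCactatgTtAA

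Identity of coding sequences was 79.8% to 87.6% within the 5 PIP1 genes, 70.6% to 94.8% within the 8 PIP2 genes and 67.5% to 75.5% between the groups. Next to PIP2B and RD28 the closest pairs were PIP1A with PIP1B at 87.6%, PIP2A with PIP2B at 86.1%, PIP1C with PIP1;4 at 85.2% and PIP3 with PIP2;8 at 84.6%. Whether a read can be placed in 1 gene depends on longer identical stretches. Of the windows of 50 bases in the annotated exons, 19.6% in PIP2B and 21.7% in RD28 occurred in the other gene, and for windows of 100 bases the shares were 11.5% and 12.8%. For the other 11 genes none of these windows, of either length, occurred in any other annotated gene. PIP2B and RD28 are also neighbours on chromosome 2, on opposite strands and pointing away from each other. Neither the read length nor the handling of reads with several matches is stated in the labels, so the split of reads between PIP2B and RD28 is uncertain.

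**Figure D1:**
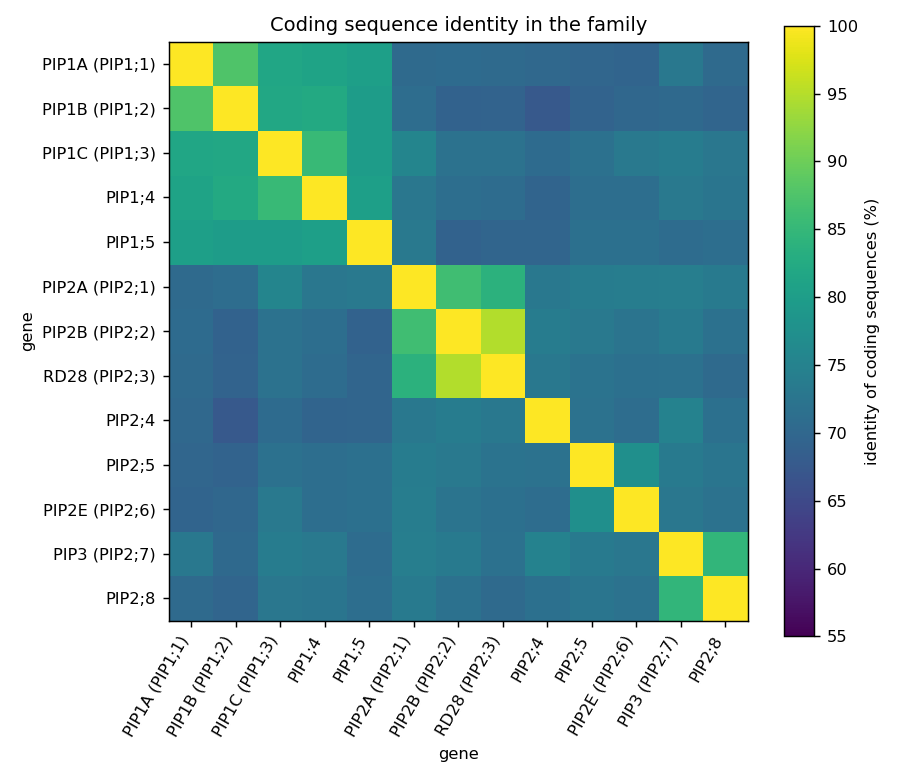
Heat map of the percent identity of coding sequences between the 13 plasma membrane aquaporin genes, over positions where both genes of a pair have a base. The PIP1 genes form one block at the upper left (79.8% to 87.6%), and PIP2B with RD28 is the closest pair at 94.8%.

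The stem held large amounts of these transcripts, and most were somewhat higher in hdt1. The 10 genes summed to 2273 FPKM in wild type and 2714 FPKM in hdt1. They took 0.293% of all counted reads in wild type and 0.349% in hdt1, 1.19-fold more (1.18 to 1.20). The PIP1 genes summed to 1574 and 1850 FPKM, 1.17-fold more per counted read (1.15 to 1.18), and the PIP2 genes to 699 and 864 FPKM, 1.24-fold more (1.21 to 1.26). The sum over PIP1 genes was 2.25 times that over PIP2 genes in wild type and 2.14 times in hdt1. In this bulk tissue a difference in the number of cells of a type and a difference in RNA per cell cannot be told apart.

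No member reached a 2-fold difference. Calls at 2-fold, and all log2 ratios, were made on the log2 scale after adding 1 FPKM to both values, and 17811 genes averaging 1 FPKM or more entered, all 10 members among them. Over all genes that entered, 2.32% were 2-fold higher and 0.741% were 2-fold lower, so 0 of 10 members in each direction is close to the background. At 1.5-fold, PIP1C and PIP2;5 were higher, against 7.04% of all genes, and 0 members were lower, against 3.21%. Of the 10 members, 8 had a log2 ratio above 0, against 46.0% of all genes, and 2 had one below 0, against 54.0%. The median log2 ratio was 0.28 for the members and -0.03 for all genes. Intervals of the fold were wholly above 1 for 7 members, against 25.0% of all genes, below 1 for 2 members, against 29.1%, and included 1 for PIP1;4. Abundant genes as a class leaned the other way. Of the 3130 genes averaging 50 FPKM or more, 32.6% had a log2 ratio above 0, and of the 8 members at that level 7 did. The interval was above 1 for 6 of these 8, against 26.2% of such genes, and below 1 for 1, against 56.9%.

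**Figure D2:**
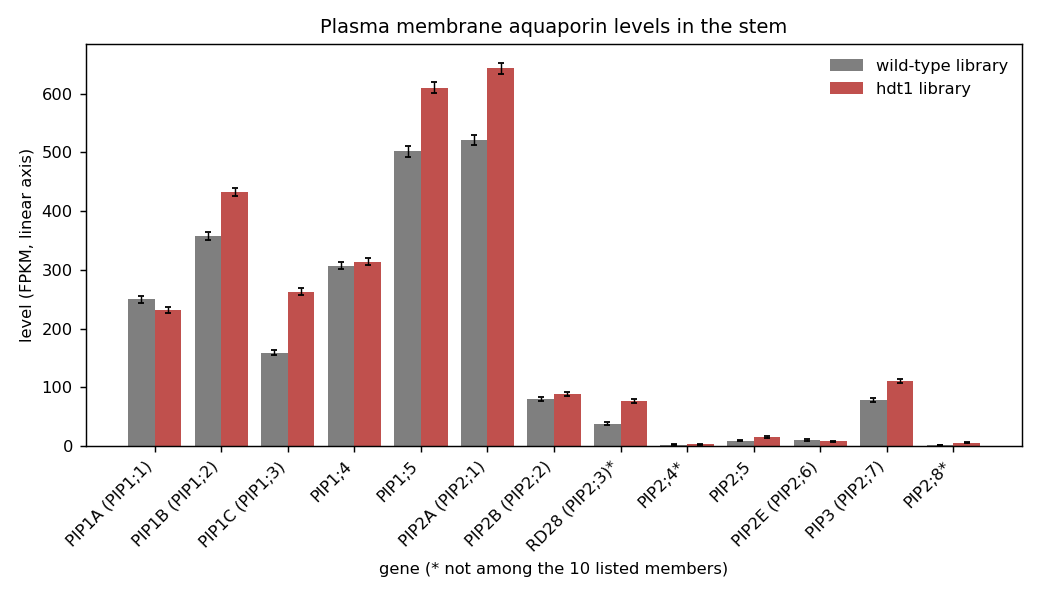
Bars give the FPKM of each plasma membrane aquaporin in the wild-type and the hdt1 library on a linear axis, with 95% Poisson intervals for counting error. PIP2A and PIP1;5 are the highest genes in both libraries, and an asterisk marks the 3 genes outside the 10 listed members.

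The members differed in level by 56.7-fold in wild type and 78.9-fold in hdt1 from the highest to the lowest. PIP2A was the highest in both, followed by PIP1;5, PIP1B and PIP1;4, and these 4 genes made up 74.2% of the members' FPKM in wild type and 73.7% in hdt1. Below them PIP1A stood above PIP1C in wild type, and PIP1C above PIP1A in hdt1. Of the 9 pairs of neighbours in this order, 2 had a level ratio in wild type whose interval included 1, PIP2B with PIP3 and PIP2E with PIP2;5. In the hdt1 library the intervals of all 9 pairs lay above 1.

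Among the PIP2 genes, PIP2A encodes a water channel of stem, leaf and root that also passes hydrogen peroxide and is phosphorylated in guard cells during closure of the stomata. It was at 521 FPKM in wild type, from 14999 reads, and at 643 FPKM in hdt1, from 19663 reads. The hdt1 value was 1.23-fold higher (1.21 to 1.26), and among nuclear genes its rank in level went from 147 to 107. PIP3, whose product is moved to the membrane with the syntaxin SYP121 and removed through TSPO, was at 78.8 and 110 FPKM, 1.40-fold higher (1.32 to 1.48). PIP2B, a water channel best known from the root, was at 80.2 and 88.1 FPKM, 1.099-fold higher (1.04 to 1.17).

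The remaining PIP2 members were low and went opposite ways. PIP2;5 was at 9.17 FPKM in wild type and 14.8 FPKM in hdt1, from 245 and 421 reads, 1.62-fold higher (1.38 to 1.90). PIP2E was at 10.5 and 8.15 FPKM, from at least 285 and 234 reads, 1.29-fold lower (1.08 to 1.54). Its log2 ratio of -0.33 was the lowest of the 10 and stood at percentile 12.7 of all genes. These are the only members under 50 FPKM, and they changed places at the bottom of the order.

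In the PIP1 group PIP1C had the largest difference of the 10 members. It was at 159 FPKM in wild type, from 4463 reads, and at 262 FPKM in hdt1, from 7834 reads. The fold was 1.65 (1.59 to 1.72) and the log2 ratio of 0.72 stood at percentile 95.1 of all genes. Its share of the members' FPKM went from 6.98% to 9.67%. PIP1;4, the gene closest to it in coding sequence, whose product carries hydrogen peroxide in defence, was at 307 and 314 FPKM, a fold of 1.02 with an interval from 0.995 to 1.051. The intervals of these close relatives do not overlap.

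Of the other PIP1 genes, PIP1B and PIP1;5 were higher in hdt1 and PIP1A was lower. PIP1B, whose product has been linked to carbon dioxide transport in leaves, was at 358 and 433 FPKM, 1.21-fold higher (1.18 to 1.24). PIP1;5 was at 502 and 610 FPKM, 1.22-fold higher (1.19 to 1.25). PIP1A, the closest relative of PIP1B, was at 250 and 231 FPKM, 1.08-fold lower (1.04 to 1.12). On the values as deposited, PIP1A and PIP1;4 were the abundant members without a higher value beyond counting error, and the folds of PIP1B, PIP1;5 and PIP2A had intervals that overlap one another. These small differences depend on the scaling. With equal FPKM sums the fold of PIP1A was 0.967, with an interval from 0.935 to 1.0003 that no longer excluded 1. The fold of PIP1;4 was then 1.07 (1.04 to 1.097), wholly above 1. With the other scalings run, on the median gene and on trimmed sums, PIP1A stayed below 1 and PIP1;4 was above 1, each beyond counting error.

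**Figure D3:**
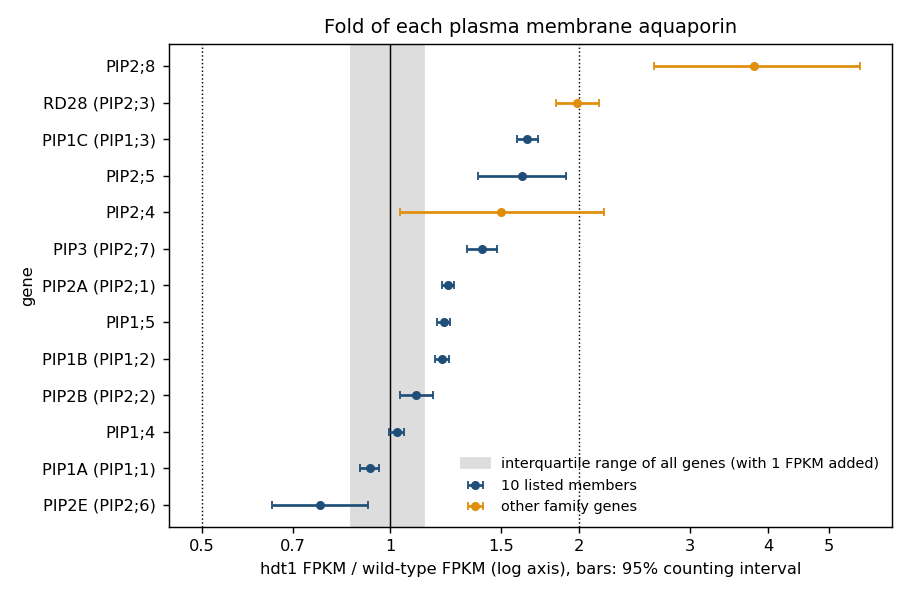
Points give the ratio of hdt1 to wild-type FPKM for each plasma membrane aquaporin on a log axis, and bars are 95% counting intervals. Dotted lines stand at 2-fold, the grey band holds the interquartile range of all genes, and only PIP2;8, outside the 10 members, lies wholly beyond 2-fold.

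The 3 family genes outside the 10 were all higher in hdt1, by more than most members. RD28, named for its response to desiccation, was at 38.2 FPKM in wild type and 75.8 FPKM in hdt1, 1.99-fold higher (1.84 to 2.15), from 951 and 2006 reads. PIP2;8, the closest relative of PIP3, was at 1.47 and 5.57 FPKM, 3.79-fold higher (2.63 to 5.59), from 37 and 149 reads. PIP2;4 was at 1.97 and 2.96 FPKM, 1.499-fold higher (1.04 to 2.19), from 49 and 78 reads. As deposited and with 1 FPKM added, PIP2;8 was past 2-fold, at a log2 ratio of 1.41, and RD28 was just short, at 0.97. RD28 was past 2-fold with equal FPKM sums (1.03), centring on the median (1.03), trimmed sums (1.01) and the length trend removed (1.054). For the pair that shares sequence, the level of PIP2B was 2.101 times that of RD28 in wild type and 1.16 times in hdt1. Their sum, which does not depend on the split of reads between them, was 118 and 164 FPKM, 1.39-fold higher (1.32 to 1.45).

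The other aquaporin groups differed among themselves. The tonoplast genes (TIP) summed to 1009 FPKM in wild type and 943 FPKM in hdt1, a fold per counted read of 0.923 (0.907 to 0.940). The NOD26-like genes (NIP), some of whose products also act at the plasma membrane, summed to 112 and 176 FPKM, 1.59-fold higher (1.53 to 1.66). The small basic genes (SIP) summed to 118 and 113 FPKM, with an interval that includes 1. Together these 22 genes summed to 1239 FPKM in wild type and 1231 FPKM in hdt1, a fold per counted read of 1.0 (0.985 to 1.02) as deposited. The scalings run multiply hdt1 values by 1.03 to 1.04, so the fold over these 22 genes depends on the scaling. Of the 10 that entered, 6 had a log2 ratio above 0, against 46.0% of all genes, and 4 below, against 54.0%. None was past 2-fold, against 2.32% higher and 0.741% lower, and the median was 0.05. These counts are near the background. The 10 PIP genes summed to 1.83 times the 22 genes in wild type and 2.204 times in hdt1, a difference that 1 library per genotype cannot test.

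Among the tonoplast genes, which carry water into and out of the vacuole, TIP2 (TIP1;2) was the most abundant aquaporin of the wild type at 685 FPKM. It was at 529 FPKM in hdt1, 1.29-fold lower (1.27 to 1.32). GAMMA-TIP (TIP1;1) was at 174 and 229 FPKM, 1.31-fold higher (1.26 to 1.37), and DELTA-TIP (TIP2;1), which overlaps other genes in the annotation, at 60.1 and 97.1 FPKM, 1.62-fold higher (1.52 to 1.72). TIP2 was therefore above PIP2A in wild type and below it in hdt1. Of the NIPs, the boric acid channel gene NIP5;1 was at 80.9 and 137 FPKM, 1.70-fold higher (1.62 to 1.78). NIP6;1, which overlaps another gene in the annotation, was at 16.4 and 24.2 FPKM, 1.48-fold higher (1.31 to 1.67). SIP1A, of the endoplasmic reticulum, was at 78.1 and 71.0 FPKM, 1.099-fold lower (1.03 to 1.17), and with equal FPKM sums its interval included 1.

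Of 9 genes listed for the control of plasma membrane aquaporins, 5 had a log2 ratio above 0, against 46.0% of all genes. The other 4 were below 0, against 54.0%, so the directions are near the background. Of the 9 genes, 2 were 2-fold higher, against 2.32% of all genes. Both belong to the RMA group, membrane-anchored RING ubiquitin ligases of the endoplasmic reticulum of which RMA1 is known to act in the turnover of PIP2A. RMA1 was at 4.91 FPKM in wild type and 15.9 FPKM in hdt1, 3.23-fold higher (2.72 to 3.85), and it overlaps another gene in the annotation. RMA3 was at 10.1 and 27.3 FPKM, 2.71-fold higher (2.34 to 3.15), and RMA2, the other gene of this group, at 36.4 and 70.1 FPKM, 1.93-fold higher (1.73 to 2.14).

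The remaining genes of control were closer between the libraries. OST1, the kinase that phosphorylates PIP2A in guard cells, was at 14.1 and 13.8 FPKM, with an interval of the fold that includes 1. TSPO was at 2.29 and 1.33 FPKM, from at least 39 and 24 reads, 1.73-fold lower (1.01 to 3.00). SYP121 was at 70.9 and 79.7 FPKM, 1.12-fold higher (1.06 to 1.19), and SYP61, another syntaxin of PIP traffic, at 37.6 and 34.0 FPKM, 1.11-fold lower (1.004 to 1.22). With equal FPKM sums the intervals of both TSPO and SYP61 included 1. Whether their products or those of the PIP genes differed in amount was not measured.

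**Figure D4:**
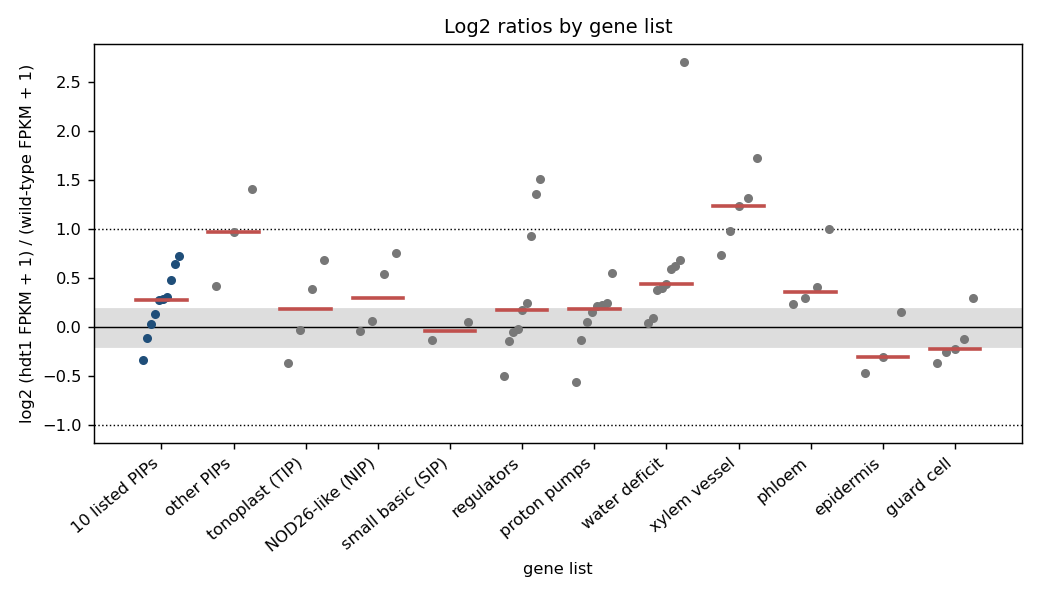
Points give log2 ratios of hdt1 over wild type, with 1 FPKM added to both, for each gene that entered, by gene list, and red lines are list medians. The grey band is the interquartile range of all genes, dotted lines stand at 2-fold, and the 10 listed members have a median of 0.28.

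The proton pumps of the plasma membrane, another family of that membrane, had 6 of 8 genes above 0 and none past 2-fold, with a median of 0.18. The largest log2 ratio in size was that of AHA4, which overlaps another gene in the annotation. AHA4 was lower in hdt1, at 2.94 and 1.67 FPKM, a 1.76-fold difference (1.40 to 2.22). AHA1, the most abundant gene of this family, was at 265 and 314 FPKM, 1.18-fold higher (1.16 to 1.21). AHA3, known from phloem companion cells, was at 26.1 and 38.6 FPKM, 1.48-fold higher (1.40 to 1.57). Genes of water deficit had 9 of 9 members above 0 and 1 past 2-fold, with a median of 0.44. The gene past 2-fold was the NAC factor RD26, at 8.02 and 57.8 FPKM. The dehydrin gene ERD10 was at 158 and 245 FPKM and COR47 at 387 and 504.3 FPKM. These counts stand beside the same 46.0% of all genes above 0, 2.32% at least 2-fold higher and 0.741% at least 2-fold lower. The lists were not tested against the aquaporins.

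Markers of stem tissues also differed between the libraries, and their part in the differences of the aquaporins was not tested. Over all genes 46.0% were above 0 and 54.0% below 0, while 2.32% were at least 2-fold higher and 0.741% at least 2-fold lower. The counts of markers stand beside these shares. The 5 genes listed for xylem vessels were all above 0, and 3 of them, the cellulose synthase genes CESA4, CESA7 and CESA8, were past 2-fold. These 3 genes are not particular to vessels, and each overlaps at least 1 other gene in the annotation. XCP1 and XCP2, the others of this list, were short of 2-fold, at log2 ratios of 0.74 and 0.97. XCP1 also overlaps another gene. The 5 summed to 32.9 FPKM in wild type and 89.9 FPKM in hdt1. The 4 phloem markers were all above 0, SEOR1 past 2-fold, and summed to 370 and 463 FPKM. Both fibre markers and both cambium markers were above 0, with sums of 23.0 and 33.8 FPKM for fibre and of 21.9 and 34.2 FPKM for cambium. The pollen marker VGD1 was at 1.83 and 5.75 FPKM, and the floral genes AP3, PI and AG averaged under 1 FPKM. Of the guard cell markers 4 of 5 were below 0, but the interval of each of these 4 included 1. That of HT1, 0.375 to 1.037, came from at least 42 and 28 reads and may be too wide. On these reads the guard cell marker beyond counting error was FAMA, which was 1.23-fold higher (1.14 to 1.34). The 5 summed to 44.6 and 48.5 FPKM, of which FAMA made up 28.3 and 34.9 FPKM. The median of the guard cell list was -0.23, and 0.09 over FAMA and KAT1, the only markers averaging 5 FPKM or more. Of the 3 epidermis markers that entered, CER1 and ATML1 were lower and FDH higher, each beyond counting error. Of 9 clock genes 7 were above 0 and none was past 2-fold, with PRR5 1.54-fold higher (1.44 to 1.63) and TOC1 1.42-fold higher (1.36 to 1.49), and the labels do not state the hour of collection. No root or seed marker entered. The root markers COBL9, EXPA7 and CASP1 and the seed marker CRA1 were listed at 0 in both libraries. The root marker PYK10 had 6 reads in wild type and 14 in hdt1. The seed markers OLEO1 and AT2S1 had 0 reads in wild type, and 3 and 4 in hdt1. PYK10 and OLEO1 each overlap another gene in the annotation.

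The region from 250 bases before to 50 bases after each annotated start was searched on both strands for a few short motifs. TATAAA was present for 7 of the 10 members and in 52.1% of 27561 protein-coding genes. CCGAC, the core of the dehydration-responsive element, was present for 2 members, PIP1C and PIP2;5, and in 15.0% of all genes. The share of the 10 members was 20%, which is close to the background. PIP1C and PIP2;5 are the members with the highest log2 ratios, a match seen after the values were known. RD28 and PIP2;8 had higher log2 ratios, 0.97 and 1.41, but lie outside the 10 members counted here. Whether the match extends to them was not tested. ACGTG, which also covers every CACGTG, was present for 0 members and in 26.7% of all genes, and AAAATATCT for 0 members and in 2.81%. A match of letters is a description and not a binding site.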

How the data were processed

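RNA was sequenced from 1 hdt1 and 1 wild-type stem library. The authors deposited FPKM values for both in a single table, per the file headers, in which 67 of 33669 features carry no locus identifier and were left out. Per the submitters' processing notes, the tools include HTSeq 0.6.1, TopHat2 2.0.12 and Bowtie2 2.2.3, while build, annotation, strand setting and read length are not given in those sources, so no genome coordinates are printed. Symbols, exon lengths and sequences were taken by locus identifier from RefSeq TAIR10.1. QSK1 and PATROL1 were left out because that annotation does not name their loci. Members and gene lists were chosen with earlier results of these data known.

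The FPKM worth of 1 read scales inversely with the length of a gene. This gave the ratio of the totals. For 21796 features above 0 in both libraries it gave a whole pair of reads within a relative error of 1.5e-14. The totals themselves rest on taking counted length as equal to annotated exon length at 1248 loci that shared the same scale. Where a common multiple was open, the smallest one giving a length between the coding length and 1.05 times the annotated exons was used, settled for 83.7% of 23501 features. Recovered reads sum to 98.7% and 98.8% of the totals. A count of 0 allows 3 reads, or 0.138 and 0.130 FPKM for a gene of 1000 bases. Reads are not independent molecules, so intervals and floors cover counting error only.

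Adding 1 FPKM to both values before the log2 ratio understates differences of low genes. Named genes are the 13 family genes and genes taken, in each other list, from those past 2-fold or up to 4 with the largest log2 ratios, not all of which are named. A few other genes of known role, such as OST1 and COR47, were named after their values were seen. Sequences were aligned with Biopython 1.88. The read recovery was tried on simulated Poisson counts. Intervals in that simulation came from the simulated counts and not from recovered reads, so it does not speak to spread beyond counting error.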

Additional observations from a re-analysis of the deposited data

How the results depend on the processing

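No paired analysis was possible because each genotype has 1 library, and none could be left out. No member was past 2-fold under any alternative run at that limit, so 0 members at a limit of 4-fold follows without a further check. Changes of the filter on low values could not alter this, since all 10 members averaged 9.34 FPKM or more. With a limit of 1.5-fold, 2 members were called higher, PIP1C and PIP2;5, against 7.04% of all genes, and 0 lower, against 3.21%. The members' median log2 ratio was 0.34 with equal FPKM sums, 0.33 when centred on the median gene among those averaging 10 FPKM or more, 0.32 with equal sums without the 100 most abundant and the organelle genes, and 0.32 with the length trend removed. The fold of the members' summed FPKM, 1.19 as deposited, was 1.25, 1.24, 1.23 and 1.23 under the same settings, and 1.21 over all 13 genes of the family. With the GC trend removed both were lower than as deposited, a median of 0.25 against 0.28 and a fold of 1.18. The number of members above 0 was 8 under every setting run except the removal of the length trend, where PIP1;4 went to -0.01 and 7 were above 0. Changes of the pseudocount or of the filter on low values could not alter this number. Over all genes the share above 0 was 46.0% as deposited and 54.0% with equal FPKM sums. The median log2 ratio of all genes was -0.03 as deposited and 0.03 with equal FPKM sums. It was 0.02 with median centring, 0.01 with trimmed sums and -0.03 with the length trend removed. Under the 3 scalings the medians of the members and of all genes were thus both higher than as deposited. Members with an interval wholly above 1 were 7 as deposited and 8 under each of the 3 scalings, since PIP1;4 joined them. Members wholly below 1 were 2, and 1 with equal FPKM sums. Over all genes the share wholly above 1 also rose, from 25.0% as deposited. It was 30.8% with equal FPKM sums, 30.1% with median centring and 28.6% with trimmed sums. The share of all genes wholly below 1 fell from 29.1% to 24.5% with trimmed sums and 22.7% with median centring. It was lowest with equal FPKM sums. The counts of members thus moved in the same direction as all genes. PIP2;8 had a log2 ratio of 1.41, and of 0.71 with a pseudocount of 5 FPKM, which is large beside its values of 1.47 and 5.57 FPKM.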
